A study of Mus musculus with 14 samples.

Results

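The genes described here encode the Fc gamma receptors, the cell-surface receptors that bind the constant part of IgG antibodies. They were chosen by symbol: the ligand-binding receptors Fcgr1, Fcgr2b, Fcgr3 and Fcgr4, and Fcer1g, the signalling chain that 3 of these receptors need. All 5 were found, of 43432 genes in the deposited table, and all 5 were among the 17390 genes tested (those with 10 or more normalized counts in 2 or more of the libraries). RNA was sequenced from SiglecF+ CD11c+ cells, the surface markers of alveolar macrophages, separated by MHC class II (MHCII) staining from digested lungs of 129S1 mice, all male and 10 to 12 weeks old. Bleomycin, a DNA-damaging drug that injures the lung and leads to fibrosis, or water had been instilled into the trachea (bleomycin at 3 U/k as the labels write it). The 5 groups were MHCII-high and MHCII-low cells 2 weeks after bleomycin, MHCII-high and MHCII-low cells 4 weeks after bleomycin (3 libraries each), and the MHCII-low gate of mice given water, called controls (2 libraries, replicates 1 and 3). MHCII-high cells of controls were not analysed here, so each comparison of MHCII-high cells with controls also crosses the sort gate. The labels do not say whether libraries came from single or pooled mice, so p-values measure the spread between these libraries.

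Fc gamma receptors work as a balanced set. When IgG-coated particles cluster the activating receptors FcγRI (Fcgr1), FcγRIII (Fcgr3) and FcγRIV (Fcgr4), an immunoreceptor tyrosine-based activation motif (ITAM) on the associated common gamma chain (Fcer1g) is phosphorylated by Src-family kinases and recruits Syk, which starts engulfment, oxidant release and cytokine production. FcγRIIb (Fcgr2b) is the inhibitory member: its tail carries an inhibitory motif (ITIM) that recruits the lipid phosphatase SHIP1 (Inpp5d) and restrains the activating receptors. Macrophages carry both kinds, and B cells carry FcγRIIb as their usual Fc gamma receptor.

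Recovered depth was 15106415 to 88059630 reads per library, and the least-covered value of any of the 5 genes rested on 384 reads. The MHC class II gene H2-Aa separated the gates, at 16282.6 to 38503.3 normalized counts in the 6 MHCII-high and 127.8 to 1810.4 in the 8 MHCII-low libraries. Siglecf (3056.4 to 9550.6) and Itgax, which encodes CD11c (25185 to 44133.2), were read in all 14. The share of mitochondrial ribosomal RNA ran from 3.12% to 29.0%, and 4-week MHCII-high replicate 3 stood apart on the second principal component (146.4, where the others lay between -73.5 and 44.7). Without that library no call on any of the 5 genes was lost or gained.

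The 4 genes Fcgr2b, Fcgr4, Fcgr3 and Fcer1g lie in this order on chromosome 1, and Fcgr1 lies alone on chromosome 3 (build GRCm38, with spans identical in the deposited table and in GENCODE). Fcgr2b (ENSMUSG00000026656) spans 170958617 to 170976547 on the reverse strand. After 42372 bases comes Fcgr4 (ENSMUSG00000059089, 171018920 to 171029761, forward strand), and after another 21412 bases Fcgr3 (ENSMUSG00000059498, 171051174 to 171064935, reverse strand). Fcer1g (ENSMUSG00000058715, 171229572 to 171234365, reverse strand) follows 164636 bases further on. Fcgr1 (ENSMUSG00000015947) spans 96282909 to 96293969 on the reverse strand of its chromosome.

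Fcgr2b and Fcgr3, an inhibitory and an activating receptor, share coding sequence, so short reads from it fit both genes, and the stretch is shown because these are the members that passed a test. Of all 50-base words in the GENCODE transcripts of Fcgr3, 166 of 1733 (9.58%) also occur in Fcgr2b, and 249 of the 5685 words of Fcgr2b (4.38%) occur in another gene, 166 of them in Fcgr3. Fcgr1, Fcgr4 and Fcer1g share no such word with any gene. The longest identical run of coding sequence is 129 bases. In Fcgr2b it covers part of exon 3 (chr1:170967980-170968081) and of exon 4 (chr1:170966674-170966700), and in Fcgr3 part of exon 3 (chr1:171057691-171057792) and of exon 4 (chr1:171054167-171054193), in the mRNA sense of the C57BL/6J reference.
Fcgr2b and Fcgr3 shared run: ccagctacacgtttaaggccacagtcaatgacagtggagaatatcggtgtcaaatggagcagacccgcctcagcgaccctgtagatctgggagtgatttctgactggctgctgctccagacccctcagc
How the authors' counting treated reads from this run is not given in the sources used here. A second uncertainty is the antisense gene Gm38204, which overlaps 155 exon bases of Fcgr2b. Without a stated use of strand, reads of the 2 genes there cannot be told apart. Gm38204 itself was read at 0 to 69.4 normalized counts, at most 1.29% of the Fcgr2b value in the same library.

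The sequences before the start sites are shown because Fcgr2b and Fcgr3, on the same chromosome with Fcgr4 between them, differed in how far they moved, with Fcgr1 as the member on another chromosome. Each is the 250 bases before the RefSeq start site (GRCm38.p6), 5′ to 3′ in the direction of the gene, with motif matches in capitals. The bases are those of the reference genome, which is of another strain than the mice used here. The Fcgr2b window is chr1:170976072-170976321, that of the first Fcgr3 start site chr1:171059404-171059653 (reverse strand, both), and that of Fcgr1 chr3:96293970-96294219 (reverse strand). The Fcgr2b and Fcgr3 windows lie inside the spans of their genes, which end at 170976547 and 171064935. Other annotated transcripts of these genes therefore start further upstream, and their windows are not shown.
Fcgr2b: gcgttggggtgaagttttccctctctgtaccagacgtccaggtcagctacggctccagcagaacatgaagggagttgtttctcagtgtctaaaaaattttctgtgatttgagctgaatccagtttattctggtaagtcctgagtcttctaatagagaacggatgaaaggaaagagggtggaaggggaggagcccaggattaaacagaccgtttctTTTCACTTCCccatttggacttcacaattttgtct
Fcgr3: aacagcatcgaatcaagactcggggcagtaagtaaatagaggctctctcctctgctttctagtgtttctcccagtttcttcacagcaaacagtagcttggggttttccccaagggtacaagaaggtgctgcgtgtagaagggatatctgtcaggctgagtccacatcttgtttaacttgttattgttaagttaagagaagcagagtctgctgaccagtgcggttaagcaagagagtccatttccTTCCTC
Fcgr1: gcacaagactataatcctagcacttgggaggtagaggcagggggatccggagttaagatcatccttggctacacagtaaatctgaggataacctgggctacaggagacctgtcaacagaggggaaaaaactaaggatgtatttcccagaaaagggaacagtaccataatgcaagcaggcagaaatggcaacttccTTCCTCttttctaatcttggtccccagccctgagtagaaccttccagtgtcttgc
The letters searched on both strands were the core bound by the myeloid factor PU.1 (GAGGAA), the composite element of PU.1-type and interferon regulatory factors, called EICE (GGAA, any 2 bases, then GAAA, so that its start overlaps the end of the PU.1 core), and the TATA box (TATAAA). All 5 members had a window, Fcgr3 a pair of overlapping ones. The Fcgr2b window holds 1 EICE match, 35 to 26 bases before the start, a match that 2.30% of the 32851 RefSeq windows of this length hold. The PU.1 core lies 6 to 1 bases before the start in Fcgr3, 22 to 17 in Fcgr4 and 55 to 50 in Fcgr1, and 23.3% of all windows hold it. No member's window holds TATAAA (12.4% of all windows), and that of Fcer1g holds none of the 3. These are matches of letters, not sites of measured binding.

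Fcgr2b, the inhibitory receptor, was the member that changed most. At 2 weeks it read 11935.5, 11629.1 and 15295.2 normalized counts in MHCII-high libraries, against 3570.9, 3344 and 4287.1 in MHCII-low libraries. At 4 weeks it read 3808.7, 4810.4 and 5379.7 in MHCII-high and 690.3, 818.6 and 1076.8 in MHCII-low cells. The controls read 613.9 and 366.7. MHCII-high libraries were above all MHCII-low libraries of the same week, and the highest of the 14 values was 41.7 times the lowest. For the other 4 genes that ratio was 2.03 to 2.61. The SD of Fcgr2b on the log2 scale over the 14 libraries (1.74) was at percentile 98.4 of 9994 genes with a mean of at least 100 normalized counts, and those of the others were at percentiles 39.1 to 55.1.

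**Figure D1:**
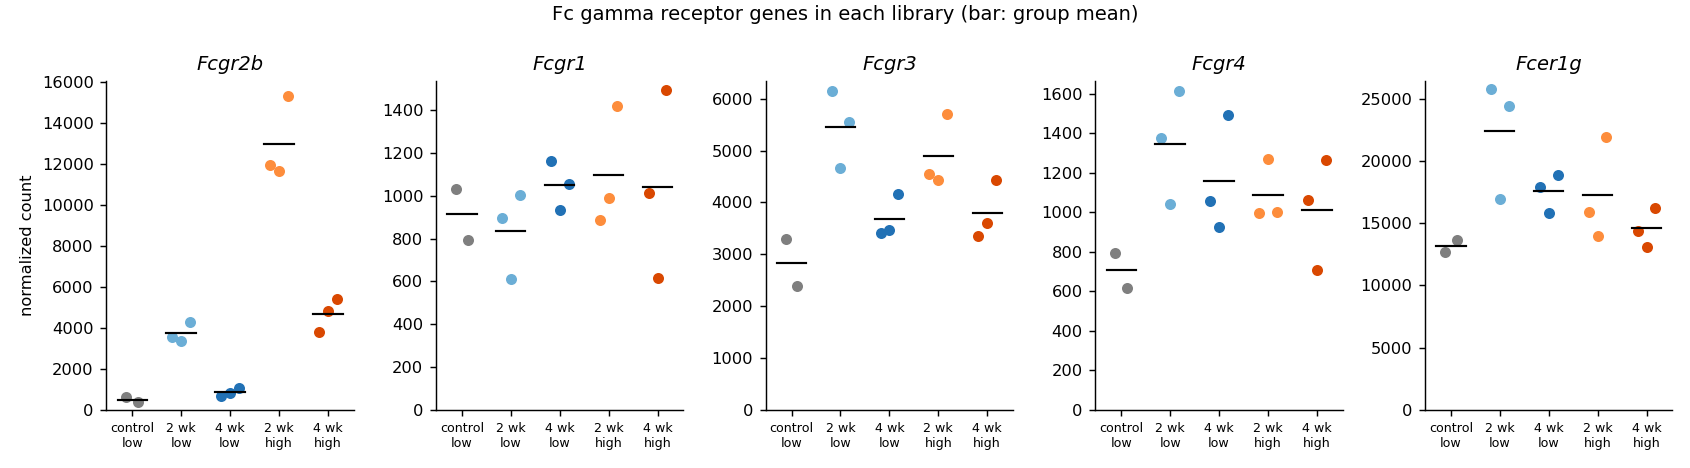
Normalized counts of the 5 genes (y axis, each panel with its own linear scale from 0) in the 14 libraries, by group (x axis: weeks after bleomycin, MHCII gate). Each point is 1 library and each bar the group mean; Fcgr2b runs from 366.7 in a control to 15295.2 in a 2-week MHCII-high library, with overlap of neighbouring groups only between 2-week MHCII-low and 4-week MHCII-high cells, while the groups of the other genes mostly overlap.

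MHCII-high cells held more Fcgr2b transcript than MHCII-low cells at both times. The limma log2 fold change was 1.79 ± 0.21 (SE) at 2 weeks (3.46-fold, adjusted p 2.8e-05) and 2.45 ± 0.21 at 4 weeks (5.45-fold, adjusted p 3.0e-07). Over both times it was 2.12 ± 0.15 (adjusted p 5.6e-09), the 14th smallest p of the 17390 genes tested. Of the 5 genes, 1 passed at each time and in the mean, where 2.87% of all genes passed at 2 weeks, 2.50% at 4 weeks and 7.21% in the mean. The difference was 0.65 ± 0.30 larger at 4 than at 2 weeks, which did not pass (limma unadjusted p 0.043, adjusted p 0.85). For this interaction limma called 0 genes, against 987 at an unadjusted p under 0.05, 0 by edgeR and 60 by DESeq2. In these sorted bulk samples, more cells that express a gene and more RNA per cell cannot be told apart.

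Both gates also changed with time after bleomycin. In MHCII-low cells, where a control exists, Fcgr2b rose 7.81-fold by 2 weeks (limma log2 fold change 2.97 ± 0.24, adjusted p 1.3e-07), the 6th smallest p of all genes. It fell by 2.13 ± 0.21 on the log2 scale from 2 to 4 weeks (limma adjusted p 6.8e-06), as 1 of the 5 genes called in a comparison with 0.857% of all genes called. At 4 weeks both control libraries were below all 3 MHCII-low libraries, yet the difference of 0.84 ± 0.24 did not pass (limma adjusted p 0.42). In that comparison 0 of the 5 genes passed by limma, edgeR or DESeq2, and 0.0460% of all genes passed by limma. At an unadjusted p under 0.05 there were 2 of the 5, Fcgr2b (0.0022) and Fcgr4, and 6.12% of all genes. In MHCII-high cells the level fell by 1.48 ± 0.21 from 2 to 4 weeks (limma adjusted p 0.0018), the 1 member called beside 1.07% of all genes. That call was lost when those 2 groups were fitted alone (limma adjusted p 0.063, with 0 of all genes called). Against the control MHCII-low cells, MHCII-high cells were 27.0-fold higher at 2 weeks (limma log2 fold change 4.76 ± 0.24, adjusted p 2.3e-11) and 9.72-fold higher at 4 weeks (3.28 ± 0.24, adjusted p 2.1e-08), where 2.15% of all genes passed and 1 of the 5.

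Ordered by mean level, Fcgr2b went from 490 ± 175 in controls (SD, n = 2) to 862 ± 197 in 4-week MHCII-low, 3734 ± 492 in 2-week MHCII-low, 4666 ± 795 in MHCII-high cells at 4 weeks and 12953 ± 2034 at 2 weeks (n = 3 each). The libraries of neighbouring groups overlapped at 1 of these 4 steps, between 2-week MHCII-low and 4-week MHCII-high cells.

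Fcgr3 encodes FcγRIII (CD16), a low-affinity activating receptor for immune complexes. At 2 weeks it read 4546.9, 4430.1 and 5716.7 normalized counts in MHCII-high cells, against 6155.2, 4662.5 and 5556.2 in MHCII-low cells, and the controls read 3287.3 and 2389.9. All 6 libraries of the second week were above both controls. Its 4-week values were 3348.7, 3610.2 and 4431.5 in MHCII-high and 3415.7, 3460.8 and 4166.6 in MHCII-low cells. MHCII-low cells at 2 weeks were 0.95 ± 0.20 above controls on the log2 scale (limma adjusted p 0.010), and MHCII-high cells at 2 weeks were 0.80 ± 0.20 above the same controls (adjusted p 0.020). These were the second calls among the 5 genes in those comparisons, where 1.91% and 4.63% of all genes passed. Both comparisons rest on the same 2 control libraries. Without control replicate 3, neither call held (limma adjusted p 0.34 and 0.47), and the first was also lost without 2-week MHCII-low replicate 1 (0.059), with the mitochondrial rRNA share as a covariate (0.055) and with the 2 groups fitted alone (0.13). The second was also lost without 2-week MHCII-high replicate 3 (0.10) and with the 2 groups fitted alone (0.056). Neutrophils carry FcγRIII and FcγRIV too, and the sum of 7 neutrophil markers was 4237.2 to 7876.8 normalized counts in controls, 8437.9 to 10560.6 in 2-week MHCII-low and 6933.6 to 9931.3 in 2-week MHCII-high libraries. Csf3r was the largest value of that sum in each of these libraries. It read 6456.2 and 3482.3 in controls, 4530.4 to 5358.6 in 2-week MHCII-low and 4138.9 to 4653.9 in 2-week MHCII-high libraries. Of the 6 neutrophil markers that could be tested, 1 passed in each of these comparisons with controls, the chemokine receptor Cxcr2 (limma log2 fold change 2.36, adjusted p 0.0019, and 1.99, adjusted p 0.0039). The defining neutrophil marker Ly6g read 0 to 2.2 in these 3 groups. The part of these cells in the Fcgr3 and Fcgr4 levels was not tested.

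The MHCII gates were not seen to differ in Fcgr3. The log2 difference of high minus low was -0.16 at 2 weeks (95% interval -0.53 to 0.21) and 0.04 at 4 weeks (-0.33 to 0.41). The interval of the mean, -0.32 to 0.20, does not reach the 1.80 that bounds the Fcgr2b interval from below.

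Fcgr1 encodes FcγRI (CD64), the high-affinity receptor that binds single IgG molecules and is widely used as a macrophage marker. At 2 weeks it read 886, 989.6 and 1422.2 normalized counts in MHCII-high cells, against 895, 611.5 and 1002.7 in MHCII-low cells. At 4 weeks the values were 1015.6, 616.6 and 1493.4 against 1162, 933.3 and 1057.6, and the controls read 1034.6 and 793.8. Every pair of neighbouring groups overlapped, and no comparison passed. The spread within groups was wide (CV 42.1% in 4-week MHCII-high cells), and the 95% interval of the high-minus-low difference was -0.27 to 0.57 on the log2 scale for the mean of both times.

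Fcgr4 encodes FcγRIV, an activating receptor for IgG2a and IgG2b. At 2 weeks it read 997.2, 1269.7 and 1002.6 normalized counts in MHCII-high cells, against 1376, 1043 and 1616 in MHCII-low cells. At 4 weeks the values were 1061.4, 706 and 1263.4 against 1056.5, 924.5 and 1493.7. The controls, at 794.7 and 618.1, were below all 6 libraries of the second week. The largest log2 difference was 0.92 ± 0.28 between 2-week MHCII-low cells and controls, which did not pass (limma adjusted p 0.12). The high-minus-low difference, mean of both times, was -0.25 (95% interval -0.62 to 0.12).

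Fcer1g, the gamma chain itself, was the most abundant of the 5 per kilobase of exon. At 2 weeks it read 15927.7, 13987.5 and 21955.3 normalized counts in MHCII-high cells, against 25799.7, 16965.2 and 24460.4 in MHCII-low cells. At 4 weeks the values were 14418.8, 13085.1 and 16272.9 against 17962.4, 15872.8 and 18896.6, and the controls read 12695.4 and 13657.3. MHCII-low libraries lay higher than MHCII-high ones on average, and the groups overlapped at both times. The high-minus-low difference over both times was -0.32 ± 0.13 on the log2 scale (limma adjusted p 0.14), and without 2-week MHCII-low replicate 2 it was -0.42 (adjusted p 0.047). The 2-week MHCII-low cells were 0.74 ± 0.20 above controls, with a limma adjusted p of 0.066, and DESeq2 on the recovered reads called both this difference (adjusted p 0.010) and that of Fcgr4 (0.032).

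**Figure D2:**
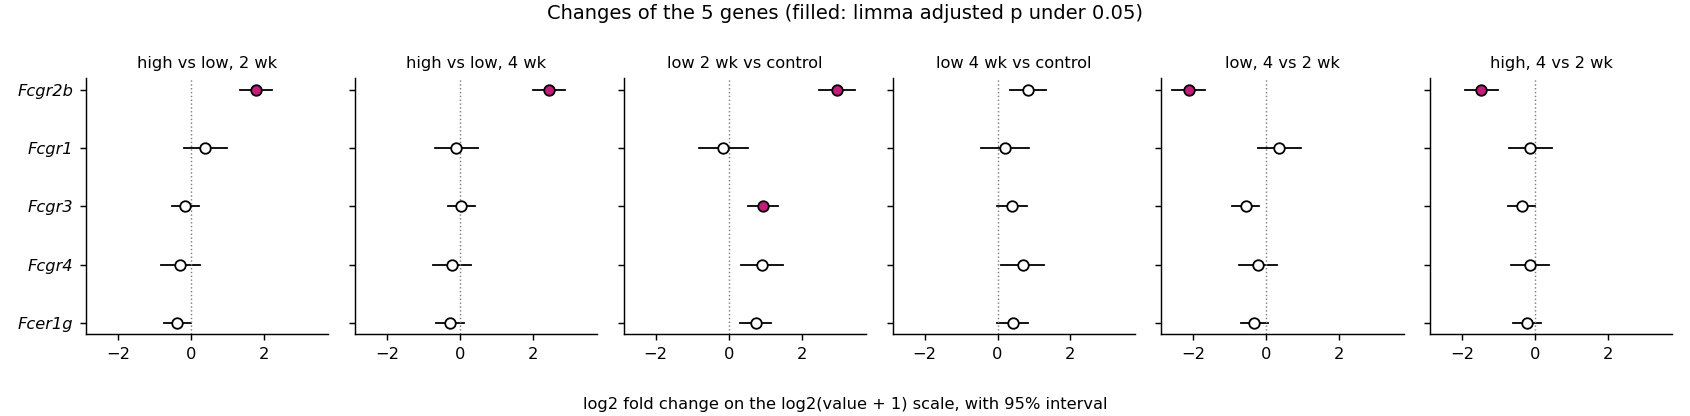
Log2 fold change of each gene (points, on the log2(value + 1) scale) with its 95% interval in 6 comparisons; filled points passed limma at an adjusted p of 0.05. Fcgr2b stands to the right of 0 in both comparisons of the gates and in that of 2-week MHCII-low cells with control, and to the left in both comparisons of 4 with 2 weeks, while most intervals of the other 4 genes include 0.

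The place of Fcgr2b among the receptors changed with the group. Divided by exon length, the mean levels in controls were 1635 normalized counts per kilobase for Fcgr3, 562 for Fcgr4, 353 for Fcgr1 and 84.7 for Fcgr2b, which was the lowest ligand-binding receptor. In 2-week MHCII-high cells Fcgr3 was at 2821 per kilobase, Fcgr2b at 2237, Fcgr4 at 868 and Fcgr1 at 425. Fcer1g stood at 15076 and 19783 per kilobase in these groups. The deposited exon length of Fcgr2b, 5790 bases, joins the exons of 7 transcripts, of which the longest has 3544 bases, so these values may understate Fcgr2b beside the other genes. By how much depends on which transcripts each library held, which was not measured.

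The ratio of activating to inhibitory transcripts puts this in 1 number per library: the summed levels of Fcgr1, Fcgr3 and Fcgr4 per kilobase over that of Fcgr2b, in which the library's scale cancels. It was 27.6 and 34.3 in the controls, 8.09, 6.50 and 6.58 in 2-week MHCII-low, 27.3, 21.9 and 21.5 in 4-week MHCII-low, 1.82, 1.96 and 1.76 in 2-week MHCII-high, and 4.81, 3.47 and 4.45 in 4-week MHCII-high libraries. All 6 MHCII-high values were below all 8 MHCII-low values, and the 4-week MHCII-low values reached just below the lower control. On average the ratio was 4.60 times lower in MHCII-high than in MHCII-low cells after bleomycin, a log2 difference of -1.93 at 2 weeks and -2.48 at 4 weeks. The summed numerator averaged 2551 per kilobase in controls, 4538 in 2-week MHCII-low, 3449 in 4-week MHCII-low, and in MHCII-high cells 4114 at 2 weeks and 3394 at 4 weeks. Between the gates of 1 week its ranges overlapped. From controls to 2-week MHCII-low cells the numerator was 1.78 times higher, which by itself raises the ratio. The ratio fell there because Fcgr2b rose more, from 84.7 to 645 per kilobase, so its fall was smaller than the rise of Fcgr2b. Without division by exon length the mean ratio of normalized counts was 9.35 in controls, 2.05 in 2-week MHCII-low, 6.97 in 4-week MHCII-low, and in MHCII-high cells 0.549 at 2 weeks and 1.26 at 4 weeks, so its size, and the side of 1 it lies on at 2 weeks, depend on the length used. The ratio is made of values already given and is no separate finding, and no test of it is given.

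**Figure D3:**
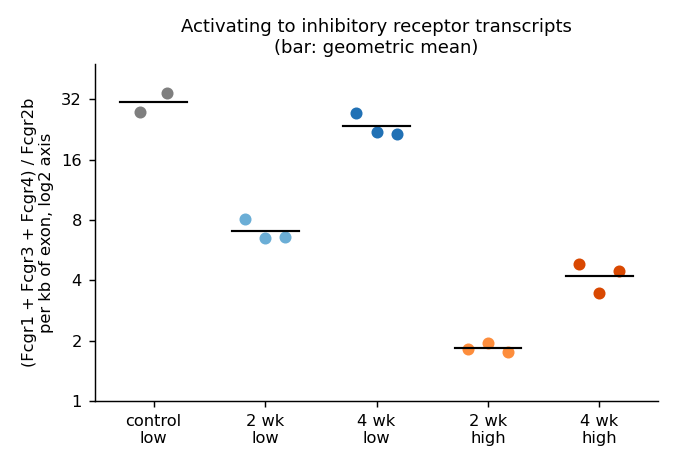
Summed level of Fcgr1, Fcgr3 and Fcgr4 per kilobase of exon divided by that of Fcgr2b (y axis, log2 scale) in each of the 14 libraries (points) by group (x axis), with the geometric mean of each group as a bar. The ratio is lowest in 2-week MHCII-high libraries (1.76 to 1.96) and highest in controls (27.6 and 34.3).

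The gamma chain is set here against the receptors it serves. Fcer1g per kilobase over the summed Fcgr1, Fcgr3 and Fcgr4 was 6.07 ± 1.57 in controls (SD, n = 2), 5.61 ± 0.39 in 2-week MHCII-low, 5.86 ± 0.45 in 4-week MHCII-low, 4.77 ± 0.68 in MHCII-high cells at 2 weeks and 4.97 ± 0.41 at 4 weeks (n = 3 each). The groups overlapped at 2 weeks, and at 4 weeks the lowest MHCII-low value (5.41) was above the highest MHCII-high value (5.21).

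Across the 14 libraries, the genes most like Fcgr2b included Foxp1 (Pearson r 0.98 on log2 values), a transcription factor, and Mmp12 (0.98), the macrophage elastase. Mmp12 averaged 785 normalized counts in controls and 30847 in 2-week MHCII-high cells. Pearson r takes no account of the size of a change, and Foxp1 changed less, averaging 3842 and 7161 in the same groups. Fcgr3 was most like Pirb (0.93), Ifitm2 (0.92) and Clec4n (0.92), and Fcer1g most like Ly6e (0.95), Tyrobp (0.95) and Trappc1 (0.93). Tyrobp encodes DAP12, the other ITAM adaptor of myeloid cells, and Clec4n encodes dectin-2, a lectin receptor that signals through the gamma chain. Fcgr1 had Uqcrh (0.86), Gskip (0.81) and Vars2 (0.79) nearest, and Fcgr4 had Iah1 (0.86), Manba (0.85) and Atp6v1e1 (0.83). Within the family, r was 0.78 for Fcgr3 with Fcer1g, 0.72 for Fcgr3 with Fcgr4, 0.71 for Fcgr2b with Fcgr3, and 0.25 for Fcgr2b with Fcer1g. The 14 points share their groups and differ in depth, so these values are descriptions, taken from 9993 other genes in the first case.

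Among the genes that act after the receptors, some passed between the gates in the mean of both times, the comparison in which 7.21% of all genes passed. Of 20 genes of activating ITAM signalling, 3 rose, 0 fell and 17 did not pass, and the median log2 fold change was 0.01, beside 0.02 over all genes tested. Those that rose were Blnk, an adaptor that B cells also use (at 2 weeks 98.7 ± 17.6 normalized counts in MHCII-low and 1269 ± 437 in MHCII-high cells; limma adjusted p over both times 1.8e-05), the kinase Src (27.0 ± 18.7 and 257 ± 20.6; adjusted p 0.00013) and the adaptor Lat2 (52.4 ± 19.2 and 345 ± 96.5; adjusted p 0.00071). The central kinase Syk did not pass: at 2 weeks it was at 15586 ± 1187 in MHCII-low and 13904 ± 971 in MHCII-high cells, and its log2 difference over both times was -0.07 (95% interval -0.28 to 0.14). Lyn, a Src-family kinase that phosphorylates ITAMs and ITIMs, differed by -0.15 (-0.39 to 0.08).

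On the inhibitory side, 2 of 16 genes rose in the mean of both times and 0 fell, beside 7.21% of all genes called in either direction, and the median was 0.08. These were the ITIM receptor Cd300a (log2 fold change 0.47 ± 0.14, limma adjusted p 0.038) and the ubiquitin ligase Cbl (0.49 ± 0.14, adjusted p 0.044). Inpp5d, the SHIP1 phosphatase that FcγRIIb recruits, differed by 0.15 between the gates (95% interval -0.08 to 0.38). It was 0.71 ± 0.18 above controls in 2-week MHCII-high cells (limma adjusted p 0.019), as was Lilrb4a, another ITIM receptor (0.67 ± 0.18, adjusted p 0.040). Lilrb4a also rose in 2-week MHCII-low cells against control (0.72 ± 0.18, adjusted p 0.045) and fell by 0.83 ± 0.16 from 2 to 4 weeks there (adjusted p 0.010). The phosphatase SHP-1 (Ptpn6) differed by -0.23 between the gates (-0.50 to 0.03).

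Of 16 genes of the phagocytic cup and actin, 2 rose and 3 fell in MHCII-high cells in the same comparison, again beside 7.21% of all genes, with a median of -0.12. Pak1, a kinase downstream of Rac, rose (0.94 ± 0.13, limma adjusted p 5.9e-05), and so did Marcks, an actin-binding substrate of protein kinase C (at 2 weeks 426 ± 66.0 normalized counts in MHCII-low and 1151 ± 285 in MHCII-high cells; adjusted p over both times 5.4e-05). Arpc2, a subunit of the Arp2/3 complex (-0.51 ± 0.11, adjusted p 0.0068), Was (-0.60 ± 0.16, adjusted p 0.023) and Coro1a (-0.49 ± 0.15, adjusted p 0.044) fell. Of the 5 NADPH oxidase genes, 0 passed limma between the gates at either time or in the mean, and 0 had an unadjusted p under 0.05 there. Cybb, its catalytic subunit, differed by -0.13 between the gates (95% interval -0.38 to 0.12).

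Of 13 other Fc receptor genes tested, 4 rose and 1 fell in MHCII-high cells in the mean of both times, where 7.21% of all genes passed. Fcrls, an Fc receptor-like gene of mononuclear phagocytes, read 390.5 to 454.6 normalized counts at 2 weeks in MHCII-high cells and 0 to 31.9 in MHCII-low cells (limma adjusted p over both times 3.3e-06). Fcer2a, Fcrla and Fcmr, which B cells are known for, rose too (adjusted p 0.0020, 0.028 and 0.045), and Fcer2a read 93 to 172.9 and 8.9 to 28.7 in the same groups. Fcgrt, the neonatal receptor that recycles IgG, fell (-0.55 ± 0.12, adjusted p 0.0044). Of 11 other receptors and adaptors tested, most of which pair with the gamma chain or DAP12, 2 fell and 0 rose. Those that fell were Lilra5 (-0.60 ± 0.12, limma adjusted p 0.0027) and Tyrobp (-0.41 ± 0.12, adjusted p 0.034). In 2-week MHCII-low cells against controls, where 1.91% of all genes passed, 2 of these 11 rose, Clec4n (1.13 ± 0.20, limma adjusted p 0.0030) and Tyrobp (0.72 ± 0.18, adjusted p 0.044). Of 8 immunoglobulin and pentraxin genes listed as possible ligands, 2 were tested, Ighg2b and Igha. In the mean of both times 1 passed, Igha, which belongs to IgA and not to the IgG that these receptors bind. The IgG gene Ighg2b did not pass. Igha read 112 to 368.4 in 4-week MHCII-high libraries and was listed at 0 in all 3 MHCII-low libraries of that time.

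**Figure D4:**
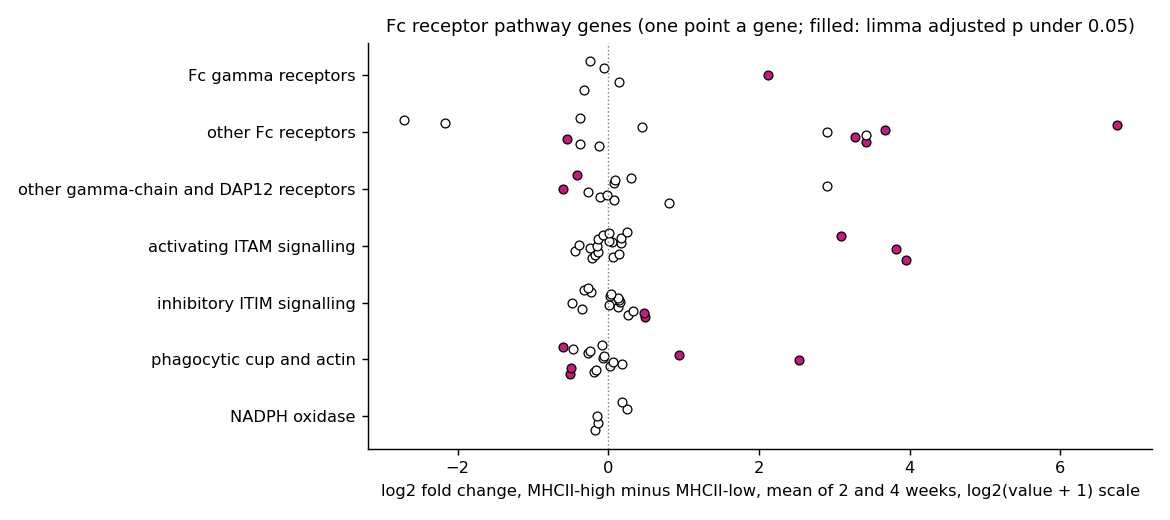
Log2 fold change of MHCII-high minus MHCII-low cells, mean of both times (x axis), for each gene (points) of the receptor family and of 6 lists of related genes (rows); filled points passed limma at an adjusted p of 0.05. Fcgr2b at 2.12 is apart from the other 4 family members, and most signalling, phagocytic and oxidase genes lie near 0.

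Markers of other cells moved with Fcgr2b, and their part in its change was not tested. Of 11 markers of monocyte-derived macrophages, 8 passed at 2 weeks and 7 at 4 weeks in the comparison of the gates, all higher in MHCII-high cells, where 2.87% and 2.50% of all genes passed. In 2-week MHCII-low cells against controls 7 of the 11 rose, beside 1.91% of all genes. Their summed level was 65421 to 78112 normalized counts in 2-week MHCII-high, 35749 to 44927 in 4-week MHCII-high, 30472 to 36372 in 2-week MHCII-low, 18172 to 22742 in 4-week MHCII-low and 16627 to 19260 in control libraries, the same order of the 5 groups by mean as for Fcgr2b. Csf1r was the largest single value of this sum in every library, at 12492.1 and 15748.5 in controls. It read 23086.2 to 24958.5 in 2-week MHCII-low and 18286.1 to 25224.9 in 4-week MHCII-high libraries, so it did not itself keep that order. Among the 11 markers, the chemokine receptor Ccr2 read 5789.2 to 8004.2 at 2 weeks in MHCII-high libraries and 834.4 to 963 in MHCII-low ones. Of 11 markers of resident alveolar macrophages, 5 were lower in MHCII-high cells at 2 weeks and 3 at 4 weeks.

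B cells express Fcgr2b, and their markers were also higher in MHCII-high cells (2 of 7 called at 2 weeks, 5 of 7 at 4 weeks). In these comparisons 2.87% and 2.50% of all genes passed. None of the 7 was at 0 in any MHCII-high library. The 7 summed to 1375 to 2616 normalized counts in 2-week MHCII-high, 929 to 4034 in 4-week MHCII-high, 156 to 326 in 2-week MHCII-low, 40.5 to 2215 in 4-week MHCII-low and 131 to 207 in control libraries. Pax5, a defining B cell factor, read 30.4 to 70.4 in 2-week MHCII-high libraries and 0 in both controls and all 3 libraries of 4-week MHCII-low cells. The 2215 was that of 4-week MHCII-low replicate 1, in which the immunoglobulin gene Ighm alone made up 2126.7 and 3 of the 7 markers were at 0. Within groups, orders of 2 or 3 libraries are descriptions only and cannot show whether the B cell sum and Fcgr2b move together. The part of B cells in the Fcgr2b level was not tested. The order of the libraries was the same for both in controls and in 2-week MHCII-low cells and opposite in 4-week MHCII-low cells, and in both MHCII-high groups the library with the lowest sum (replicate 3) had the highest Fcgr2b. Of 7 dendritic cell markers, 2 were higher in MHCII-high cells at 2 weeks and 3 at 4 weeks, beside the same 2.87% and 2.50% of all genes. The sum of the 7 was 662 to 1083 in 2-week and 916 to 1429 in 4-week MHCII-high, 113 to 188 in 2-week and 88.4 to 177 in 4-week MHCII-low and 261 to 266 in control libraries. In 2-week MHCII-low cells against controls, limma called 0 of the 7 B cell markers (1 at an unadjusted p under 0.05) and 0 of the 7 dendritic cell markers (0 at an unadjusted p under 0.05). Of all genes 1.91% were called there, and 12.7% had an unadjusted p under 0.05. From 2 to 4 weeks in MHCII-high cells limma called 0 B cell markers (0 at an unadjusted p under 0.05). It called 1 dendritic cell marker, which rose (1 at an unadjusted p under 0.05). Of the 11 markers of monocyte-derived macrophages it called 1, which fell, and 10 had an unadjusted p under 0.05. Among these 11, 0 had a log2 fold change above 0, and the median was -1.24. In this comparison 1.07% of all genes were called, and 13.95% had an unadjusted p under 0.05.

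**Figure D5:**
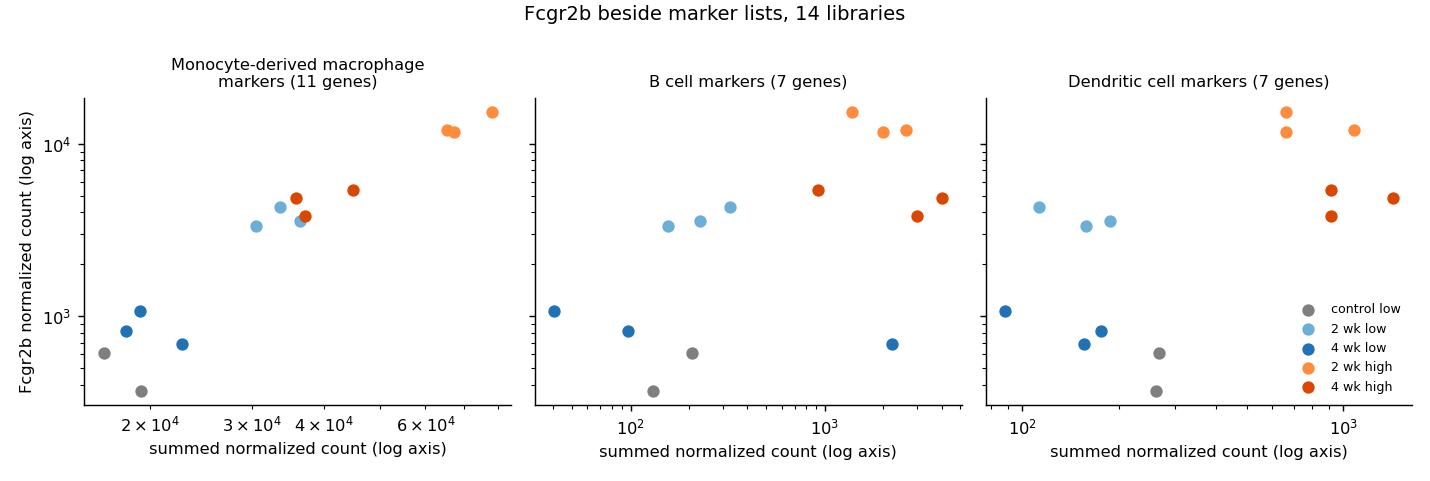
Fcgr2b normalized count (y axis, log scale) against the summed normalized count of 3 marker lists (x axes, log scale) in the 14 libraries, coloured by group. Groups with a higher mean sum of monocyte-derived macrophage markers, in which Csf1r was the largest single value, had a higher mean Fcgr2b. MHCII-high libraries lie at higher dendritic cell sums (662 to 1429) than MHCII-low ones (88.4 to 266).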

How the data were processed

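The authors deposited 1 table of normalized counts, a signal that per the file headers is scaled per library, for 43432 genes in 14 libraries. Per the submitters' processing notes the tools were STAR and DESeq2 and the build mm10. For their versions, the counting program, its use of strand and the annotation used, nothing is stated (not given in the sources used here). Per the labels' protocols, mRNA was isolated on beads and cDNA was amplified, and no molecular identifiers are named there, so copies of 1 molecule count as separate reads. Every column was made of multiples of a constant that 1 read is worth (0.39 to 2.24 normalized counts). This held within the rounding of 0.05 for 99.9% to 100% of the values tested, where 4.47% to 25.7% would by chance. Values of the highest read numbers were not tested in this way. Division by the constant gave back whole reads. Exon length and GC percent are the authors' deposited columns.

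The values not being raw counts, limma 3.58.1 with a mean-variance trend was fitted over all 14 libraries to log2(value + 1), with a coefficient for each group. The filter kept genes with 10 or more normalized counts in 2 or more libraries, and p-values were adjusted over these 17390 genes by the Benjamini-Hochberg method (threshold 0.05). Every adjusted p without a named tool is from limma, ± after a log2 fold change is the SE, and ± after a mean is the SD. Fold changes on this scale understate changes of low genes. There were 10 comparisons. edgeR 4.0.16 and DESeq2 1.42.0 were run on the recovered reads as alternatives, beside other filters, a pseudocount of 5, TMM factors, a replicate block, covariates and leaving out each library. The GC alternative was chosen after seeing the data. On simulated data for the 2-week comparison of the gates (17390 genes), 40.4% of 57 genes changed 2-fold and 67.9% of 56 changed 4-fold were recovered among genes with a mean of at least 100.

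The members and the lists were chosen with earlier results of these data known. Genes named were the 5 members, up to 3 genes per list and comparison with the smallest p past the threshold, and the 3 genes with the highest Pearson r to each member among genes with a mean of at least 100. Some items that meet these rules are not reported here. Other genes named (such as Syk, Lyn, Ptpn6, Cybb, Fcrla, Fcmr, Was, Coro1a and the markers) were chosen after their values were seen. A permutation test planned for the ratios of receptor levels is not given, since the members were chosen with these data known. All 5 members matched the RefSeq promoter table (GRCm38.p6). Protein sequences were not used here.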

Additional observations from a re-analysis of the deposited data

How the results depend on the processing

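Of 860 refits of the 5 genes under other settings, 845 left the call as it was, 8 lost it, 7 gained one and 0 turned a called direction. For Fcgr2b 171 of 172 were unchanged. The exception was 4 against 2 weeks in MHCII-high cells with only the groups compared in the fit, which called 0 members in place of 1 (limma adjusted p 0.063, against 5.4e-08 to 0.022 under the others). For 2-week MHCII-low cells against control, 2 members were called, but 4 with DESeq2, 4 with the GC trend removed, 1 with the mitochondrial rRNA share as a covariate, 1 with only the groups compared, and 1 to 3 with a library left out (1 without control replicate 3 or 2-week MHCII-low replicate 1). For 2-week MHCII-high cells against control, 2 were called, but 1 with only the groups compared and 1 to 2 with a library left out (1 without control replicate 3 or 2-week MHCII-high replicate 3). For the gates over both times, 1 was called, and 1 to 2 with a library left out (2 without 2-week MHCII-low replicate 2). The cause was not tested. Where leaving out a control leaves 1, it is assumed to vary like the other groups.

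With the replicate block, Fcgr2b kept 1.79 and 2.45 for the gates at 2 and 4 weeks, and 1 of 50 member calls changed: Fcer1g in 2-week MHCII-low cells against control became 0.86 (limma adjusted p 0.0054). Blocks within time changed 0 of 20. Same-numbered libraries of the gates deviated together little (correlations 0.0061 to 0.095 at 2 weeks and 0.035 to 0.095 at 4 weeks), so the numbers were not taken to pair them. The ratio of activating to inhibitory transcripts stayed between -2.25 and -2.13 (log2, high minus low) and the gamma chain ratio between -0.29 and -0.18 under every setting run.

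The count of all genes called, the background here, moved more: 499 at 2 weeks (gates) became 203 to 1055, 434 at 4 weeks 56 to 911, and 1254 in the mean 500 to 2122. Against control, 332 (2-week MHCII-low) became 36 to 665, 8 (4-week MHCII-low) 0 to 74, 806 (2-week MHCII-high) 379 to 1183 and 374 (4-week MHCII-high) 44 to 749. From 2 to 4 weeks, 149 in MHCII-low cells became 15 to 320 and 186 in MHCII-high cells 0 to 638. The top values were DESeq2's. With GC or DESeq2 scaling the median of all genes shifted by at most 0.14 (log2). Of the calls for the gates over both times, 69.4% were higher, and 54.7% with TMM factors. The 2 control libraries and the amplified, unlabelled molecules limit what the depth can show, and counts cover reads only.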
